A study of Mus musculus with 9 samples.

Results

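Fibroblasts that carried a Net shRNA were compared directly with fibroblasts that carried a Sap-1 shRNA, on 3 arrays each of the 9 arrays in the series. The cells were NIH 3T3, an established line of mouse embryonic fibroblasts. The groups stably expressed an shRNA against Net, an shRNA against Sap-1 or, in 3 control arrays, the lentiviral vector pLKO.1. The labels call the latter a control vector in one field and an shRNA control plasmid in another, so whether it held an shRNA is not settled. All groups were plated on fibronectin for 2 hours, kept overnight without serum, given bovine serum for 1 hour and lysed. The labels give the serum as 10% in one place and 20% in another, so its concentration is not settled. Members of the comparison were all genes on probe sets annotated to exactly 1 gene symbol, with the brightest probe set standing for each gene, which gave 19935 genes from 28815 probe sets. The labels call the 3 arrays of a group biological replicates but do not say how many independently made lines a group holds. If each group is 1 line, differences between lines and effects of the shRNA cannot be told apart, and p-values measure the spread between these arrays, which may be technical.

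Net is encoded by Elk3 and Sap-1 by Elk4, and both are ternary complex factors, ETS-domain proteins that sit on DNA beside serum response factor and pass MAP kinase signals to immediate early genes. Net is known mainly as a repressor that turns into an activator when it is phosphorylated, and Sap-1 mainly as an activator. In fibroblasts the serum response covers an early wave of transcription factor genes, the cytoskeleton, secreted matrix and growth factors, and entry into the cell cycle. Levels are log2 RMA values, differences are Net shRNA minus Sap-1 shRNA on the log2 scale ± the standard error of the fit (n = 3 arrays per group), and 1 log2 unit is a 2-fold difference. A gene was called where limma's moderated test gave a Benjamini-Hochberg adjusted p under 0.05 over all genes.

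The targeted genes were read first. Elk4 had levels of 10.58, 10.66 and 10.64 in the Net shRNA arrays and 9.50, 9.54 and 9.55 in the Sap-1 shRNA arrays, and of 11.03, 11.05 and 11.13 in the control vector arrays. It was lower in the Sap-1 shRNA cells by 1.09 ± 0.04, adjusted p = 8.1e-09, with no overlap between the groups. Elk3 had levels of 11.06, 11.08 and 11.10 in the Net shRNA arrays and 11.37, 11.40 and 11.38 in the Sap-1 shRNA arrays, and of 11.48, 11.52 and 11.52 in the control vector arrays. It was lower in the Net shRNA cells by 0.30 ± 0.04, adjusted p = 7.6e-05, again with no overlap. Each targeted mRNA was thus lower in its own knockdown, but by very different amounts. Elk4 was also lower in Net shRNA than in control vector cells, by a difference of -0.44 ± 0.04 (adjusted p = 2.3e-05). That was about as far as Elk3 itself at -0.42 ± 0.04 (adjusted p = 1.1e-05). Elk3 was in turn slightly lower in Sap-1 shRNA than in control vector cells (-0.12 ± 0.04, adjusted p = 0.023). The comparison is therefore not one of Elk3 alone against Elk4 alone. Elk1, the remaining ternary complex factor gene, did not pass (0.10, adjusted p = 0.17). Srf, the gene of serum response factor, was higher in Net shRNA cells by 0.20 ± 0.05, adjusted p = 0.0076, and Mrtfa, a coactivator of serum response factor, was higher in Sap-1 shRNA cells by 0.20 ± 0.04, adjusted p = 0.003. The coactivator genes Mrtfb (-0.27, adjusted p = 0.13) and Myocd (-0.05, adjusted p = 0.52) did not pass, though Mrtfb did without Net shRNA replicate 2 (-0.39). Mrtfb also passed toward Sap-1 shRNA where its 3 probe sets were averaged. On its brightest probe set the difference rests on Net shRNA replicate 1, at 10.32 beside 10.92 and 10.81 in the other Net shRNA arrays, and was -0.09 without it.

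Most fibroblast markers were bright in both knockdowns, and several were lower under Sap-1 shRNA. Of 21 defining fibroblast markers, 10 were higher in Net (47.6%) and 2 in Sap-1 shRNA cells (9.52%), against 23.2% and 22.9% of genes at or above the median level. The list median level was 12.47 in Net and 12.32 in Sap-1 shRNA cells. The markers Lum (4.51), Pdgfra (1.48), Cd34 (0.84) and Dcn (0.42) were higher in Net shRNA cells by the log2 differences given. Twist1 (0.34) and Pdgfrb (0.12) were the 2 markers higher in Sap-1 shRNA cells. Vimentin (Vim) stood at 13.92 in Net and 13.92 in Sap-1 shRNA cells, fibronectin (Fn1) at 13.91 and 13.94, and the collagen I gene Col1a2 at 13.03 and 12.96, and none of these passed the test. Fap, a protease of activated fibroblasts, stood at 4.66 and 4.69. Of the 8 marker lists of other cell types, each had at most 3 members called in 1 direction, or at most 5 with the median of neighbouring genes taken off as described with the chromosomes. The macrophage list had a median level of 6.55 in Net and 6.59 in Sap-1 shRNA cells, with 2 and 1 of 15 members higher. Called members of other cell types' lists that stood out were Map2, a neuronal microtubule protein gene, higher in Sap-1 shRNA cells by 2.36 ± 0.04, adjusted p = 2.2e-11, and Tek, which encodes the endothelial receptor of angiopoietins, higher in Net shRNA cells by 2.14 ± 0.05, adjusted p = 3e-10. Tek was the 1 endothelial marker of 15 called in that direction, and the endothelial genes Cdh5 (0.65) and Emcn (0.63) were higher in Sap-1 shRNA cells.

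In all, 5480 of 19935 genes were called, 27.5% of those tested. Of these, 2823 (14.2%) were higher in Net and 2657 (13.3%) higher in Sap-1 shRNA cells, with a median size of 0.30 among called genes. At least a 1.5-fold difference was reached by 493 genes higher in Net (2.47%) and 431 higher in Sap-1 shRNA cells (2.16%), and at least a 2-fold difference by 214 (1.07%) and 144 (0.722%). Among the 9968 genes at or above the median level the shares called were 23.2% and 22.9%, which are the closer background for lists of bright genes. For 7448 genes (37.4%) the 3 arrays of either group lay wholly above those of the other.

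The calls were unevenly spread over chromosomes. Among brighter genes of chromosome 3, 226 of 484 were higher in Net and 31 in Sap-1 shRNA cells. Chromosome 8 gave 245 and 42 of 557, and chromosome 2 gave 262 and 60 of 781. Chromosomes 13 and 15 ran the other way, with 37 and 155 of 343 and with 43 and 175 of 397. The median difference was 0.14 on chromosome 3 and -0.13 on chromosome 13. Of the 9 Y-linked genes measured, 3 differed, and they are named because of their values. Eif2s3y, a translation initiation factor subunit gene, had levels of 7.33, 7.41 and 7.33 in the Net shRNA arrays and 10.21, 10.16 and 10.33 in the Sap-1 shRNA arrays, and of 8.87, 8.88 and 8.88 in the control vector arrays. Uty, a histone demethylase family gene, had 6.22, 6.55 and 6.38 in the Net shRNA arrays and 9.03, 9.06 and 9.26 in the Sap-1 shRNA arrays, and 7.50, 7.56 and 7.49 in the control vector arrays. Kdm5d, a histone demethylase gene, had 6.73, 6.79 and 6.78 in the Net shRNA arrays and 8.93, 9.06 and 9.11 in the Sap-1 shRNA arrays, and 7.88, 7.94 and 7.82 in the control vector arrays. In all 3 genes the control vector arrays lay between the knockdowns without touching either. The tests were therefore repeated with the median deviation of each gene's 50 neighbours taken off in every array, for 19842 of the 19935 genes. The 3 Y-linked genes have no value there. Apart from the mitosis and oxidative phosphorylation counts given with those lists, that moved smaller counts by over 1.5 times. Members higher in Net shRNA cells went from 13 to 20 for ion channels, from 8 to 5 for YAP-TEAD targets, from 4 to 7 for ribosomal proteins, from 2 to 1 for stress genes and from 1 to 0 for tRNA synthetases. Members higher in Sap-1 shRNA cells went from 4 to 8 for immediate early genes, from 0 to 1 for Hox genes and from 2 to 1 for the ternary complex factors and their partners. Marker lists moved too, in Net shRNA cells from 1 to 4 for epithelial, from 2 to 5 for cartilage and bone, from 1 to 3 for endothelial and from 1 to 3 for neural markers. In Sap-1 shRNA cells they moved from 2 to 5 for smooth muscle and from 1 to 2 for macrophage markers. Among genes named here the calls of Cct4, Hspd1, Junb, Kars, Mcl1, Mcm3, Mrtfa, Nuf2 and Sqle were lost, and Hes1 (0.00) and Plod1 (0.07) no longer lay on the Sap-1 side. Genes given as not passing that did pass there were Hspa5 (-0.21), Xbp1 (-0.18), Pcna (-0.18), Mcm2 (-0.13) and Col1a2 (0.12).

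**Figure D1:**
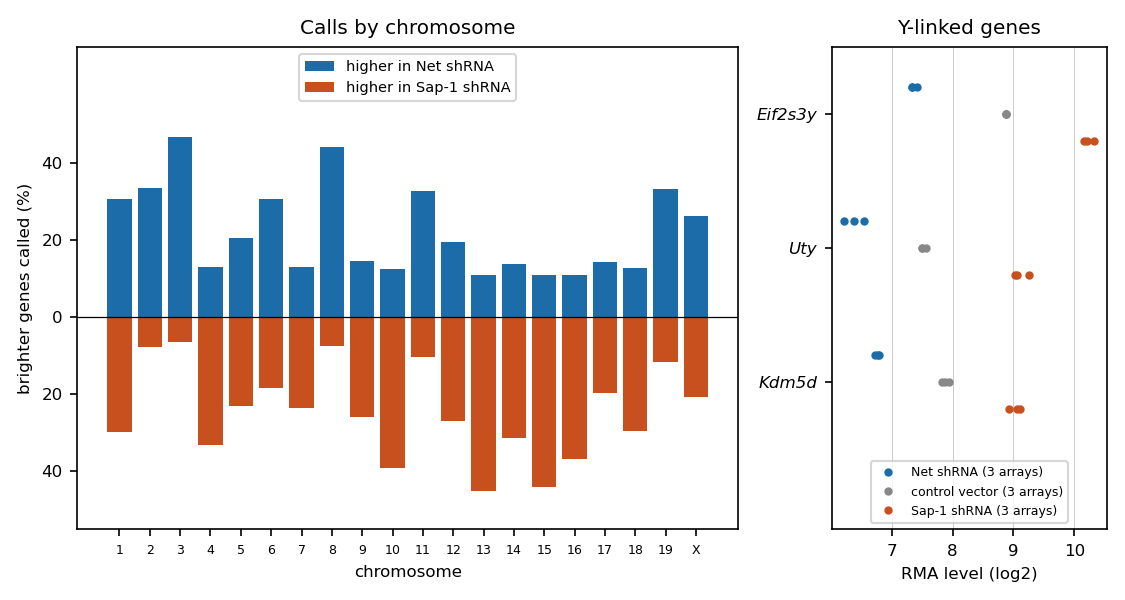
Left, the share (%) of genes at or above the median level on each chromosome that were called higher in Net shRNA (up, blue) or Sap-1 shRNA cells (down, orange). Right, log2 RMA levels of 3 Y-linked genes, 1 point per array, where the control vector arrays (grey) lie between the knockdowns.

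Several of the widest gaps were in genes of secreted and cell surface proteins. Lum, the gene of the collagen-binding proteoglycan lumican, had levels of 10.40, 10.60 and 10.56 in the Net shRNA arrays and 5.64, 6.39 and 6.01 in the Sap-1 shRNA arrays, and of 10.71, 10.79 and 10.98 in the control vector arrays. The Net shRNA arrays lay close to the control vector and the Sap-1 shRNA arrays far below, a difference of 4.51 ± 0.15, adjusted p = 2.8e-09. Agtr2, an angiotensin II receptor gene, had levels of 10.95, 11.03 and 11.10 in the Net shRNA arrays and 6.58, 6.87 and 6.56 in the Sap-1 shRNA arrays, and of 9.24, 9.24 and 9.49 in the control vector arrays. Here the control vector lay between the knockdowns, which differed by 4.36 ± 0.09, adjusted p = 1.3e-10. Igf2, an embryonic growth factor gene, had levels of 12.99, 13.13 and 13.03 in the Net shRNA arrays and 8.16, 9.68 and 8.96 in the Sap-1 shRNA arrays, and of 12.29, 12.25 and 12.45 in the control vector arrays. Its Sap-1 shRNA arrays were the most scattered of these genes, and the difference was 4.12 ± 0.27, adjusted p = 7.4e-07. Rtl3, a gene derived from a retrotransposon, had levels of 10.91, 11.07 and 11.01 in the Net shRNA arrays and 6.69, 6.90 and 6.90 in the Sap-1 shRNA arrays, and of 6.29, 5.98 and 5.95 in the control vector arrays, so that the Net shRNA arrays stood above both other groups. The Net shRNA arrays also stood above both other groups for P2ry10b, a receptor gene of the purinergic family, with group means of 8.60 in Net shRNA, 4.96 in Sap-1 shRNA and 5.05 in control vector arrays. The Golgi protein gene Golm2 (3.77), the glycosyltransferase gene Galnt17 (3.52), the adhesion receptor gene Adgrg6 (3.45), Brinp3 (3.26), the collagen prolyl hydroxylase gene P3h2 (3.25) and Ano3, of the anoctamin family (2.97), completed the 12 largest differences toward Net shRNA together with the Wnt modulator gene Sfrp2 (4.33).

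In the other direction Sema3c, a secreted guidance cue gene, had levels of 7.69, 7.94 and 7.65 in the Net shRNA arrays and 12.01, 12.06 and 12.19 in the Sap-1 shRNA arrays, and of 8.98, 9.06 and 9.45 in the control vector arrays. The knockdowns lay on opposite sides of the control vector and differed by 4.33 ± 0.12, adjusted p = 4.7e-10. Car6, a secreted carbonic anhydrase gene, had levels of 8.12, 7.94 and 8.02 in the Net shRNA arrays and 12.17, 12.12 and 12.21 in the Sap-1 shRNA arrays, and of 9.68, 9.68 and 9.71 in the control vector arrays. It too lay on opposite sides of the control vector, with a difference of 4.14 ± 0.05, adjusted p = 4.6e-12. Foxp2, a forkhead transcription factor gene, had levels of 6.49, 6.16 and 6.38 in the Net shRNA arrays and 9.41, 9.49 and 9.47 in the Sap-1 shRNA arrays, and of 6.45, 6.35 and 6.27 in the control vector arrays. For this gene the Net shRNA arrays lay among or beside the control vector arrays and the Sap-1 shRNA arrays stood apart (3.11 ± 0.08, adjusted p = 2.8e-10). Serpinb9b, a serine protease inhibitor gene whose family holds close copies and whose signal is therefore uncertain, was higher in Sap-1 shRNA cells by 3.78. The keratinocyte adhesion gene Cdsn (3.63), the Wnt agonist gene Rspo3 (3.06), the cadherin gene Cdh19 (2.91), the secreted peptide gene Ostn (2.90), the F-box gene Fbxl7 (2.87) and the ATP-gated channel gene P2rx3 (2.77) followed, besides Eif2s3y.

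**Figure D2:**
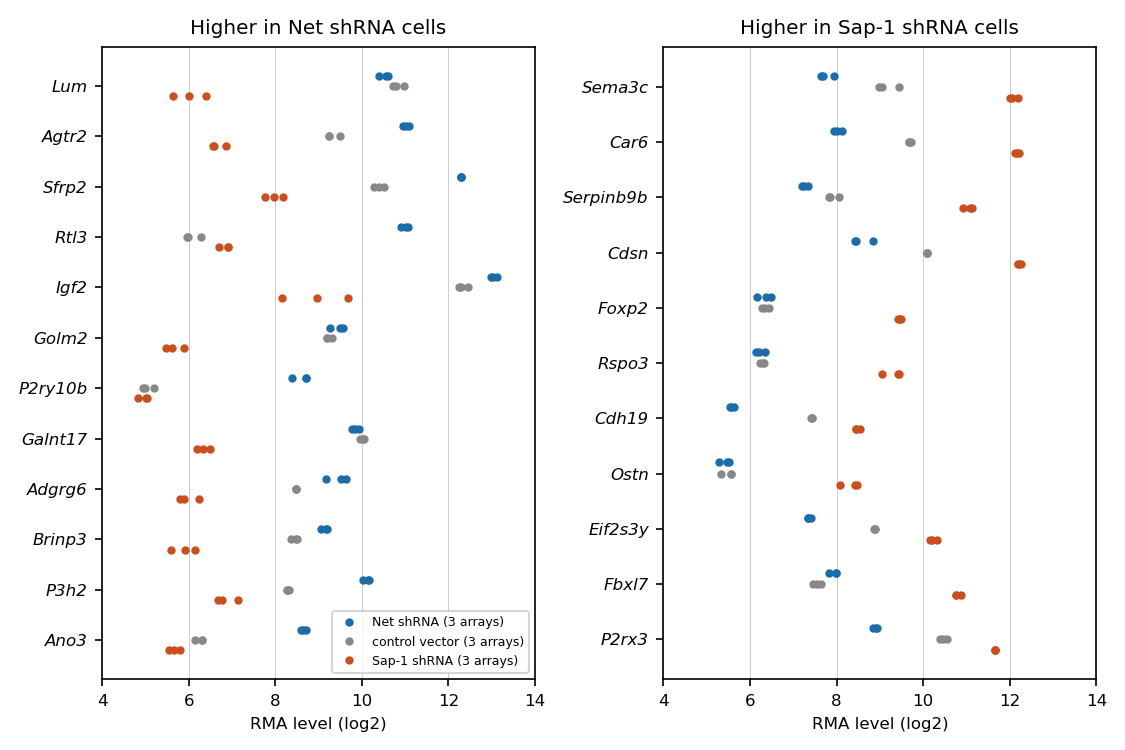
Log2 RMA levels of the genes with the 12 largest differences toward Net shRNA and of 11 of the 12 toward Sap-1 shRNA, 1 point per array, with Net shRNA in blue, control vector in grey and Sap-1 shRNA in orange. The genes were chosen among those without overlap between the Net and Sap-1 shRNA arrays. The control vector lies beside either knockdown or between them depending on the gene.

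Matrix genes were called in both directions. Of 41 interstitial collagen and elastic fibre genes measured, 14 were higher in Net and 9 in Sap-1 shRNA cells, and 18 did not pass. That was 34.1% and 22.0% of the list, against 23.2% and 22.9% of brighter genes. The share toward Sap-1 shRNA was thus near the background. The median difference was 0.06 against 0.02 over all genes. Col12a1, a fibril-associated collagen gene, was higher in Net shRNA cells by 1.72 ± 0.08, adjusted p = 5.2e-08. The fibril collagen gene Col11a1 (1.2), the microfibril gene Mfap4 (1.28) and the crosslinking enzyme gene Loxl3 (1.07) were higher there too. The members higher in Sap-1 shRNA cells were led by enzymes that modify or crosslink collagen. Loxl4, a lysyl oxidase family gene, was higher in Sap-1 shRNA cells by 1.23 ± 0.07, adjusted p = 2.8e-07, the collagen lysyl hydroxylase gene Plod2 by 0.95 ± 0.07, adjusted p = 2.1e-06, and the collagen prolyl hydroxylase gene P4ha2 by 0.84 ± 0.11, adjusted p = 0.00015. Their relatives P4ha1 (0.52) and Plod1 (0.39) were higher there as well.

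Of 42 proteoglycan and matricellular genes measured, 17 were higher in Net and 12 in Sap-1 shRNA cells, and 13 did not pass. The shares were 40.5% and 28.6%, against 23.2% and 22.9% of brighter genes, so this list was called in both directions. Differences of at least 2-fold numbered 5 and 2. Postn, the gene of the matricellular protein periostin, had levels of 12.31, 12.28 and 12.38 in the Net shRNA arrays and 9.72, 9.84 and 9.92 in the Sap-1 shRNA arrays, and of 12.38, 12.38 and 12.45 in the control vector arrays. Sap-1 shRNA arrays were low and Net shRNA arrays stood at the control vector level, a difference of 2.50 ± 0.06, adjusted p = 1.4e-10. The collagen-binding proteoglycan gene Aspn was higher in Net shRNA cells by 1.83 ± 0.08, adjusted p = 1.9e-08 and the hyaluronan synthase gene Has2 by 1.76 ± 0.06, adjusted p = 4.8e-09. The cell surface proteoglycan genes Gpc6 and Sdc3 were higher in Sap-1 shRNA cells by 1.07 ± 0.07, adjusted p = 4.6e-07 and by 0.97 ± 0.06, adjusted p = 5.4e-07. Ccn3, a matricellular gene, was higher there by 1.02 ± 0.06, adjusted p = 3e-07.

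Of 25 basement membrane genes measured, 6 were higher in Net and 4 in Sap-1 shRNA cells, and 15 did not pass. Their shares, 24.0% and 16.0%, lay near and below the 23.2% and 22.9% of brighter genes. Without Sap-1 shRNA replicate 3 the count higher in Sap-1 shRNA cells was 2. Lama4, a laminin chain gene, had levels of 11.63, 11.82 and 11.80 in the Net shRNA arrays and 9.43, 9.68 and 9.68 in the Sap-1 shRNA arrays, and of 10.39, 10.30 and 10.53 in the control vector arrays. Net shRNA arrays lay above and Sap-1 shRNA arrays below the control vector, and the difference was 2.15 ± 0.08, adjusted p = 8.8e-09. Lama2, another laminin chain gene, was higher in Sap-1 shRNA cells by 1.04 ± 0.07, adjusted p = 1.2e-06, although both knockdowns lay below the control vector mean of 10.16, at 7.58 and 8.62. The laminin-binding gene Nid2 was higher in Net shRNA cells by 1.14. Of 36 matrix protease and inhibitor genes measured, 14 were higher in Net (38.9%) and 6 in Sap-1 shRNA cells (16.7%), and 16 did not pass. Ctsk, the collagen-degrading cathepsin K gene, had levels of 8.58, 8.74 and 8.66 in the Net shRNA arrays and 6.07, 6.08 and 6.16 in the Sap-1 shRNA arrays, and of 8.55, 8.69 and 8.66 in the control vector arrays. The Sap-1 shRNA arrays stood below both other groups, with a difference of 2.56 ± 0.05, adjusted p = 1.3e-10. Mmp9, a gelatinase gene, was higher in Net shRNA cells by 1.24, whereas the metalloproteinase genes Mmp16 and Mmp11 were higher in Sap-1 shRNA cells by 1.47 and 1.28. Of 21 integrin subunit genes measured, 6 were higher in Net and 5 in Sap-1 shRNA cells, and 10 did not pass. At 28.6% and 23.8% this list too lay near the shares of brighter genes. Without Net shRNA replicate 2 or Sap-1 shRNA replicate 3 the count higher in Net shRNA cells was 3. The subunit gene Itga8 was higher in Net shRNA cells by 1.42 and the laminin receptor subunit gene Itga6 in Sap-1 shRNA cells by 1.22.

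Growth factor signalling genes had their larger differences toward Net shRNA. Of 67 growth factor and receptor kinase genes measured, 21 were higher in Net and 15 in Sap-1 shRNA cells, and 31 did not pass. The shares were 31.3% and 22.4%, against 23.2% and 22.9% of brighter genes, so the Sap-1 share was at the background. The median difference was 0.07. At least a 2-fold difference was reached by 9 and 0 members. Angpt1, a ligand gene of the angiopoietin family, had levels of 9.72, 9.93 and 9.87 in the Net shRNA arrays and 7.16, 7.37 and 7.56 in the Sap-1 shRNA arrays, and of 7.56, 7.73 and 7.73 in the control vector arrays. Net shRNA arrays stood alone above the other groups, and the difference was 2.47 ± 0.09, adjusted p = 7.5e-09. Its receptor gene Tek was named above with the endothelial markers. The ligand genes Hgf (1.90) and Gas6 (1.72) were higher in Net shRNA cells too. Pdgfra, a receptor gene for platelet-derived growth factor and a fibroblast marker, had levels of 12.32, 12.48 and 12.49 in the Net shRNA arrays and 10.84, 10.96 and 11.03 in the Sap-1 shRNA arrays, and of 12.71, 12.68 and 12.68 in the control vector arrays. The Sap-1 shRNA arrays were the low group (1.48 ± 0.06, adjusted p = 1.1e-08). On the other side the ligand genes Fgf10 (0.96), Pdgfa (0.70) and Vegfa (0.48) were higher in Sap-1 shRNA cells.

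Of 58 Wnt pathway genes measured, 20 were higher in Net shRNA cells, 7 were higher in Sap-1 shRNA cells and 31 did not pass, 34.5% and 12.1% of the list. Secreted Wnt modulators lay at both ends. Sfrp2 had levels of 12.28, 12.30 and 12.30 in the Net shRNA arrays and 7.76, 8.17 and 7.97 in the Sap-1 shRNA arrays, and of 10.28, 10.40 and 10.51 in the control vector arrays, and Sfrp1, of the same family, was higher in Net shRNA cells by 2.19 ± 0.08, adjusted p = 4.2e-09. Rspo3, which amplifies Wnt signals, had levels of 6.14, 6.20 and 6.34 in the Net shRNA arrays and 9.04, 9.41 and 9.44 in the Sap-1 shRNA arrays, and of 6.29, 6.32 and 6.22 in the control vector arrays, with the Sap-1 shRNA arrays alone apart. Dkk3, of the Dickkopf family, was higher in Net shRNA cells by 1.60, and the R-spondin receptor gene Lgr5 by 1.53. The Wnt receptor genes Fzd7 (1.60) and Fzd6 (0.91) were higher in Sap-1 shRNA cells. Of 48 TGF-beta and BMP pathway genes measured, 12 were higher in Net and 9 in Sap-1 shRNA cells, and 27 did not pass. Their shares, 25.0% and 18.8%, lay near the 23.2% and 22.9% of brighter genes. The ligand gene Tgfb2 was higher in Net shRNA cells by 2.04 ± 0.06, adjusted p = 1.8e-09, as was the receptor gene Tgfbr2 by 0.68. The activin-binding gene Fstl3 was higher in Sap-1 shRNA cells by 0.65. Of 32 Notch and Hedgehog pathway genes measured, 9 were higher in Net (28.1%) and 4 in Sap-1 shRNA cells (12.5%), and 19 did not pass. The ligand gene Jag1 (1.5) and the receptor gene Notch1 (1.11) were higher in Net shRNA cells, and Lfng, which modifies Notch receptors (0.89), and the Hedgehog receptor gene Ptch1 (0.64) in Sap-1 shRNA cells. The count higher in Sap-1 shRNA cells was 2 without Net shRNA replicate 2 or 3 or Sap-1 shRNA replicate 1.

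Guidance cues, adhesion molecules and receptors showed large single-gene gaps. Their list medians were 0.03, 0.01 and 0.06, against 0.02 over all genes. Of 66 axon guidance ligand and receptor genes measured, 17 were higher in Net (25.8%) and 11 in Sap-1 shRNA cells (16.7%), and 38 did not pass. The brighter genes gave 23.2% and 22.9%, and all genes 14.2% and 13.3%. The median level of this list was 7.95 in Net and 7.86 in Sap-1 shRNA cells, beside 7.81 over all genes. Besides Sema3c, the semaphorin receptor gene Plxna4 (1.51) and the semaphorin gene Sema5a (1.25) were higher in Sap-1 shRNA cells, and the semaphorin gene Sema7a (1.43) in Net shRNA cells. Of 51 cadherin, protocadherin and latrophilin genes measured, 8 were higher in Net shRNA cells, 9 were higher in Sap-1 shRNA cells and 34 did not pass, shares near those of all genes. Cdh11, the mesenchymal cadherin gene, had levels of 12.72, 12.72 and 12.78 in the Net shRNA arrays and 10.59, 10.83 and 10.81 in the Sap-1 shRNA arrays, and of 12.66, 12.62 and 12.62 in the control vector arrays. Sap-1 shRNA arrays were the low group (2.0 ± 0.06, adjusted p = 1.2e-09). The latrophilin gene Adgrl3 was higher in Net shRNA cells by 2.83, and the protocadherin genes Pcdh9 (1.47) and Pcdh17 (1.34) in Sap-1 shRNA cells. Of 49 lipid and peptide receptor genes measured, 11 were higher in Net (22.4%) and 6 in Sap-1 shRNA cells (12.2%), and 32 did not pass. All genes gave 14.2% and 13.3%. Lpar4, a lysophosphatidic acid receptor gene, had levels of 11.87, 12.06 and 12.09 in the Net shRNA arrays and 9.31, 9.44 and 9.36 in the Sap-1 shRNA arrays, and of 8.49, 8.66 and 8.76 in the control vector arrays, and the difference was 2.64 ± 0.08, adjusted p = 8.7e-10. The prostaglandin receptor gene Ptgfr (2.47) and the sphingosine phosphate receptor gene S1pr1 (1.61) were higher in Net shRNA cells, and the receptor genes Gpr39 (1.60) and Gpr149 (1.49) in Sap-1 shRNA cells.

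Interferon-stimulated and inflammatory genes were mostly higher in Net shRNA cells. Of 47 interferon-stimulated genes measured, 32 were higher in Net shRNA cells, 3 were higher in Sap-1 shRNA cells and 12 did not pass. The share higher in Net shRNA cells was 68.1% against 14.2% of all genes, and the list median difference was 0.42. Ifit1, which encodes a protein that binds foreign RNA, had levels of 9.01, 9.27 and 9.12 in the Net shRNA arrays and 6.52, 6.59 and 6.45 in the Sap-1 shRNA arrays, and of 6.99, 7.21 and 7.18 in the control vector arrays. The Net shRNA arrays were the high group, with a difference of 2.61 ± 0.08, adjusted p = 8.9e-10. Ddx58, whose product RIG-I senses viral RNA, was higher in Net shRNA cells by 1.28 ± 0.05, adjusted p = 1.1e-08. Oasl2 was higher by 1.16, the interferon signalling factor genes Stat2 by 0.69 and Irf7 by 0.50, and Parp14 by 0.96. Against them Ifit2 (0.35), Isg20 (0.32) and the RNA sensor gene Ifih1 (0.12) were higher in Sap-1 shRNA cells, so the Ifit genes did not move together. The Ifih1 call was lost without any Net shRNA replicate, Sap-1 shRNA replicate 2 or 3, or control vector replicate 2 (difference -0.13 to -0.10). The Ifit and Oas families hold close relatives, and cross-hybridisation between them was not tested.

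The interferon-stimulated response element was searched on both strands, as its core GAAANNGAA, in the 250 bases before the start of each gene. It was found for 13 of the 34 interferon-stimulated genes with a window (38.2%), against 6.9% of all 15612 windows. Among members higher in Net shRNA cells it was found for 9 of 24 (37.5%), and among members not called for 3 of 7 (42.9%). The latter are too few to tell whether the match divides the list by its difference. The window of Ifit1 is shown as the called member with the largest difference among those that hold the core (RefSeq, GRCm38.p6, chr19:34640639-34640888, plus strand). Its capitals mark 3 matches, 2 of which overlap. A match is a description of letters and not a measured site.
Ifit1: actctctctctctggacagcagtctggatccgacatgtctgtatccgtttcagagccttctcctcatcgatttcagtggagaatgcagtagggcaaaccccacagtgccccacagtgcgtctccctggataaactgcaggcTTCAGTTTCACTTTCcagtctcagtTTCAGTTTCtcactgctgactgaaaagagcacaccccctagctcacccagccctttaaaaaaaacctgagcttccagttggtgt

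Of 62 chemokine, cytokine and NF-kB genes measured, 33 were higher in Net shRNA cells, 6 were higher in Sap-1 shRNA cells and 23 did not pass. The share higher in Net shRNA cells was 53.2% and the median difference 0.21. Ccl2, the gene of a chemokine that draws monocytes, had levels of 12.81, 12.88 and 12.85 in the Net shRNA arrays and 10.67, 10.90 and 10.72 in the Sap-1 shRNA arrays, and of 11.97, 12.03 and 12.04 in the control vector arrays. The knockdowns lay on opposite sides of the control vector, 2.09 ± 0.06, adjusted p = 5.6e-10 apart. The monocyte chemokine gene Ccl7 was higher in Net shRNA cells by 2.19 ± 0.06, adjusted p = 5.3e-10, and the neutrophil chemokine genes Cxcl5 by 1.97 ± 0.09, adjusted p = 2.1e-08 and Cxcl1 by 1.32 ± 0.07, adjusted p = 1.7e-07. The stromal chemokine gene Cxcl12 (1.47) and the NF-kB inhibitor gene Nfkbia (0.61) were higher in Net shRNA cells as well. A second brake on NF-kB, Tnfaip3, was higher in Sap-1 shRNA cells by 0.80 ± 0.07, adjusted p = 8.5e-06, with the receptor genes Tnfrsf1b (0.78) and Tlr4 (0.59). Il6 did not pass (0.31, adjusted p = 0.051), though it did without Net shRNA replicate 1 or Sap-1 shRNA replicate 2 (0.39 each). Beside these counts, the macrophage marker list had median levels of 6.55 and 6.59.

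Immediate early genes, the classical targets of ternary complex factors, were more often higher in Net shRNA cells. Of 52 immediate early serum response genes measured, 26 were higher in Net shRNA cells, 4 were higher in Sap-1 shRNA cells and 22 did not pass, to be set against 23.2% and 22.9% of brighter genes. The median difference was 0.15. Every array was taken 1 hour after serum, so these are levels at 1 time and not responses. Arc, an activity-regulated gene, had levels of 11.22, 11.29 and 11.20 in the Net shRNA arrays and 9.93, 9.83 and 9.81 in the Sap-1 shRNA arrays, and of 10.73, 10.85 and 10.93 in the control vector arrays. Net shRNA arrays were highest, and the knockdowns differed by 1.38 ± 0.06, adjusted p = 1.5e-08. Egr4, a zinc finger transcription factor gene, had levels of 9.39, 9.22 and 9.18 in the Net shRNA arrays and 8.02, 8.18 and 7.87 in the Sap-1 shRNA arrays, and of 8.94, 8.94 and 9.06 in the control vector arrays, with a difference of 1.24 ± 0.08, adjusted p = 5.3e-07. The core members moved less. Fos was higher in Net shRNA cells by 0.39 ± 0.09, adjusted p = 0.005, Egr3 by 0.34 ± 0.04, adjusted p = 7.8e-05, Junb by 0.23 ± 0.04, adjusted p = 0.0012 and Mcl1, a survival gene, by 0.28 ± 0.04, adjusted p = 0.00038. Egr1 (0.01, adjusted p = 0.9), Jun (-0.07, adjusted p = 0.33) and Fosb (0.10, adjusted p = 0.12) did not pass. The members higher in Sap-1 shRNA cells were Klf4 (0.28), Dusp1 (0.23), Nr4a2 (0.21) and Hes1 (0.17). The Hes1 call was lost without any of Net shRNA replicates 1, 2 and 3 and Sap-1 shRNA replicates 1 and 3 (difference -0.19 to -0.13).

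The CArG box, the motif that serum response factor binds, was found in the 250 bases upstream for 2 of the 39 immediate early genes with a window, against 1.25% of all windows. Srf is shown as a called immediate early gene that holds the motif (RefSeq, GRCm38.p6, chr17:46556163-46556412, minus strand). The capitals mark 2 CArG boxes.
Srf: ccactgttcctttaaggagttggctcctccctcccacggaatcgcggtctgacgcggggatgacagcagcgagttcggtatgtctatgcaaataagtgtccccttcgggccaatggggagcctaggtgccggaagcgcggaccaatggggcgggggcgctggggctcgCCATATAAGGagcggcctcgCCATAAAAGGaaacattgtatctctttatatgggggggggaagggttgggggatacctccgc

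Genes that act downstream of ERK were divided. Of 30 ERK feedback and growth signalling output genes measured, 9 were higher in Net and 11 in Sap-1 shRNA cells, and 10 did not pass. The shares were 30.0% and 36.7%, against 23.2% and 22.9% of brighter genes. The feedback inhibitor gene Spry1 was higher in Net shRNA cells by 1.26 ± 0.05, adjusted p = 5.7e-09, and the phosphatase genes Dusp10 by 1.2 ± 0.05, adjusted p = 1.6e-08 and Dusp6 by 0.48 ± 0.04, adjusted p = 2.8e-06. The phosphatase gene Dusp4 was higher in Sap-1 shRNA cells by 1.17 ± 0.13, adjusted p = 4.8e-05. Ccnd1, the cyclin D1 gene, had levels of 11.43, 11.51 and 11.42 in the Net shRNA arrays and 12.48, 12.46 and 12.44 in the Sap-1 shRNA arrays, and of 11.66, 11.71 and 11.67 in the control vector arrays, which put Sap-1 shRNA arrays above both other groups (1.01 ± 0.04, adjusted p = 1.1e-08). Of 21 ETS family genes outside the ternary complex factors measured, 6 were higher in Net and 3 in Sap-1 shRNA cells, and 12 did not pass. At 28.6% and 14.3% their shares were near and below those of brighter genes. Fli1 was higher in Net shRNA cells by 0.46 and Ets2 in Sap-1 shRNA cells by 0.57.

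**Figure D3:**
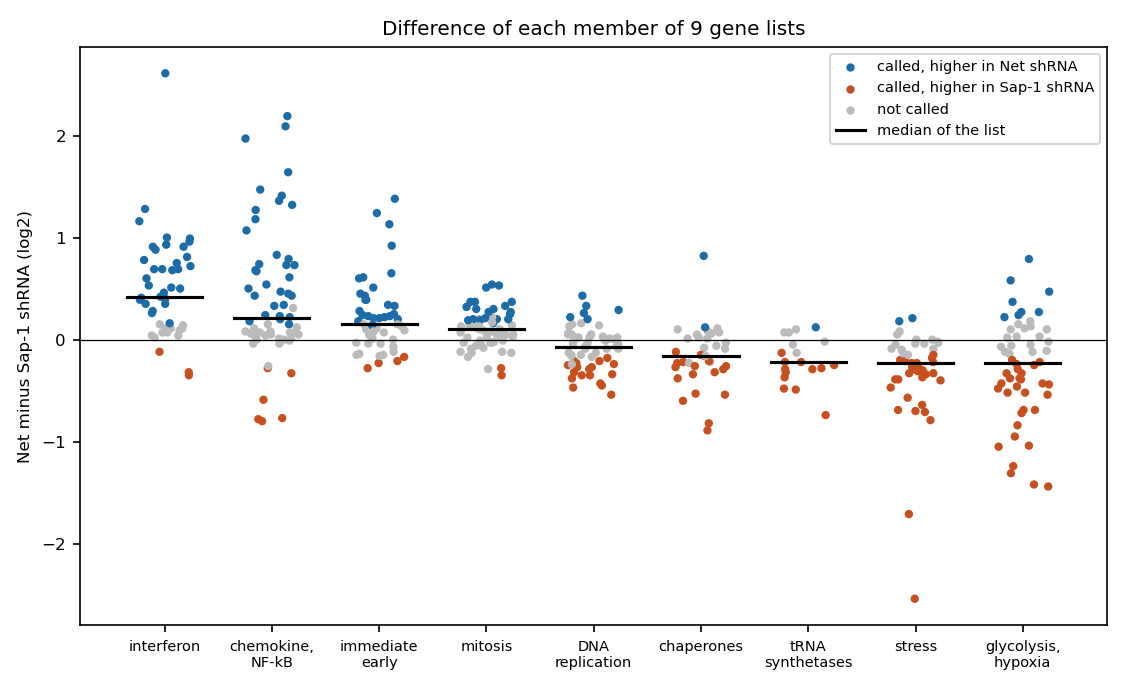
Difference (log2, Net minus Sap-1 shRNA) of every measured member of 9 gene lists, 1 point per gene, blue where called higher in Net, orange where called higher in Sap-1 and grey where not called, with the list median as a black line. Interferon, chemokine and immediate early medians lie above 0, and chaperone, tRNA synthetase, stress and glycolysis medians below it.

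Glycolysis and hypoxia response genes were the other way round. Of 54 glycolysis and hypoxia response genes measured, 8 were higher in Net shRNA cells, 29 were higher in Sap-1 shRNA cells and 17 did not pass. The share higher in Sap-1 shRNA cells was 53.7% against 13.3% of all genes and 22.9% of brighter ones, and the median difference was -0.23. Ero1a, an oxidase of protein folding in the endoplasmic reticulum, had levels of 11.32, 11.32 and 11.32 in the Net shRNA arrays and 12.74, 12.78 and 12.77 in the Sap-1 shRNA arrays, and of 11.09, 11.01 and 11.28 in the control vector arrays. Sap-1 shRNA arrays were the high group, by 1.44 ± 0.06, adjusted p = 1.6e-08. Bnip3, a mitochondrial gene induced at low oxygen, had levels of 10.78, 10.99 and 10.96 in the Net shRNA arrays and 12.16, 12.22 and 12.27 in the Sap-1 shRNA arrays, and of 10.70, 10.83 and 10.71 in the control vector arrays, again with Sap-1 shRNA arrays high (1.31 ± 0.06, adjusted p = 4.2e-08). The adenylate kinase gene Ak4 (1.42), the prolyl hydroxylase gene Egln3 (1.24) and the phosphofructokinase gene Pfkp (1.04) followed. Among glycolytic enzymes, Pgk1 was higher in Sap-1 shRNA cells by 0.44 ± 0.04, adjusted p = 8.1e-06, Ldha by 0.39 ± 0.04, adjusted p = 3.7e-05 and Hk2 by 0.33 ± 0.07, adjusted p = 0.0052. Pdk1, which holds pyruvate back from oxidation in mitochondria, was higher there by 0.54 ± 0.06, adjusted p = 5.4e-05. The glucose transporter gene Slc2a1 did not pass (-0.11, adjusted p = 0.076). Adm, a vasodilator peptide gene and another hypoxia target, was higher in Net shRNA cells by 0.79 ± 0.04, adjusted p = 2e-07, as was Hmox1, the haem oxygenase gene, by 0.47 ± 0.06, adjusted p = 0.00013. Plod2, P4ha1, P4ha2 and Vegfa belong to this list as well as to those above.

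The hypoxia response element core, searched as ACGTG on both strands, was found upstream of 24 of 46 members with a window (52.2%), against 18.5% of all windows. Of 26 members called toward Sap-1 shRNA, 12 held it (46.2%), of 15 not called 9 did (60.0%), and of 5 called toward Net shRNA 3 did. The share was thus no higher among members called toward Sap-1 shRNA. The windows of Ero1a (chr14:45318573-45318822, minus strand) and Bnip3 (chr7:138909507-138909756, minus strand) are shown as members with large differences (RefSeq, GRCm38.p6). Capitals mark 1 match in Ero1a, read on the opposite strand, and 2 overlapping matches in Bnip3, 1 on each strand.
Ero1a: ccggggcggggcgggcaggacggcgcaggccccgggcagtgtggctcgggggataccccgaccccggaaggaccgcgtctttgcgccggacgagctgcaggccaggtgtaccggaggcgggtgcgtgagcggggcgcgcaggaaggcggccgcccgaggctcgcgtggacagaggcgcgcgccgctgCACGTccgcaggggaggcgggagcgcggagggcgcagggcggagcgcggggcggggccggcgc
Bnip3: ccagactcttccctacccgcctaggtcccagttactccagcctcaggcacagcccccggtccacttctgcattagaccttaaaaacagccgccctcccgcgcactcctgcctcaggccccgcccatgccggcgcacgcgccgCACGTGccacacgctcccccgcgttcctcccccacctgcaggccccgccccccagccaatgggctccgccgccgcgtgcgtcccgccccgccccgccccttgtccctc

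Stress and protein quality control genes mostly lay higher under Sap-1 shRNA. Of 44 genes of the integrated stress and unfolded protein responses measured, 2 were higher in Net shRNA cells, 28 were higher in Sap-1 shRNA cells and 14 did not pass, a share of 63.6% in the Sap-1 direction and a median of -0.23. Vldlr, a lipoprotein receptor gene, had levels of 7.73, 7.61 and 7.47 in the Net shRNA arrays and 10.06, 10.16 and 10.19 in the Sap-1 shRNA arrays, and of 9.10, 9.10 and 9.12 in the control vector arrays. The knockdowns lay on opposite sides of the control vector (2.54 ± 0.06, adjusted p = 2.8e-10). Cth, which makes cysteine, had levels of 8.87, 8.78 and 8.80 in the Net shRNA arrays and 10.58, 10.52 and 10.47 in the Sap-1 shRNA arrays, and of 8.81, 8.83 and 8.97 in the control vector arrays, with Sap-1 shRNA arrays alone apart (1.71 ± 0.05, adjusted p = 1.6e-09). The cystine transporter gene Slc7a11 (0.79), the chaperone partner gene Sdf2l1 (0.71) and the stress transcription factor gene Ddit3 (0.39) and the pseudokinase gene Trib3 (0.37) were higher in Sap-1 shRNA cells. The central regulators did not pass, Atf4 at -0.05 (adjusted p = 0.42), Xbp1 at -0.09 (adjusted p = 0.13) and the chaperone gene Hspa5 at -0.09 (adjusted p = 0.092).

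Of 19 aminoacyl-tRNA synthetase genes measured, 1 was higher in Net (5.26%) and 12 in Sap-1 shRNA cells (63.2%), and 6 did not pass, with a median of -0.22. Brighter genes gave 23.2% and 22.9%, also for the lists that follow. These enzymes load amino acids on tRNA. Wars, the tryptophan enzyme gene, had levels of 10.73, 10.73 and 10.65 in the Net shRNA arrays and 11.43, 11.40 and 11.50 in the Sap-1 shRNA arrays, and of 10.55, 10.56 and 10.64 in the control vector arrays, higher in Sap-1 shRNA cells by 0.74 ± 0.05, adjusted p = 3.6e-07. Tars (0.49), Lars (0.48) and Iars (0.37) followed, and Kars alone was called in the Net direction (0.12), a call lost without any Net or Sap-1 shRNA replicate or control vector replicate 2. Of 36 heat shock and chaperonin genes measured, 2 were higher in Net shRNA cells, 18 were higher in Sap-1 shRNA cells and 16 did not pass, a median of -0.16. The co-chaperone gene Bag2 was higher in Sap-1 shRNA cells by 0.89 ± 0.07, adjusted p = 4e-06, the mitochondrial chaperonin gene Hspd1 by 0.38 ± 0.04, adjusted p = 4.1e-05 and Hsp90aa1 by 0.27 ± 0.04, adjusted p = 0.0004. Dnajb1, a heat-inducible partner of Hsp70, was higher in Net shRNA cells by 0.82 ± 0.05, adjusted p = 3.6e-07. The other member called in that direction, Cct4, lost its call without any Net shRNA replicate, Sap-1 shRNA replicate 1 or 2, or control vector replicate 2 or 3, which left a count of 1. Of 40 antioxidant and NRF2 target genes measured, 7 were higher in Net (17.5%) and 14 in Sap-1 shRNA cells (35.0%), and 19 did not pass. Mgst1, a membrane glutathione transferase gene, had levels of 10.28, 10.38 and 10.46 in the Net shRNA arrays and 7.64, 7.71 and 7.78 in the Sap-1 shRNA arrays, and of 10.09, 10.20 and 10.14 in the control vector arrays, higher in Net shRNA cells by 2.67 ± 0.06, adjusted p = 1.3e-10. Gsta3, of a glutathione transferase family with close copies and so uncertain, was higher in Sap-1 shRNA cells by 1.78.

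Most cell cycle genes differed little in size. The shares given for these lists are to be set against 23.2% and 22.9% of brighter genes. Of 57 DNA replication and S phase genes measured, 6 were higher in Net (10.5%) and 18 in Sap-1 shRNA cells (31.6%). The other 33 did not pass, and the median was -0.07. Dut, which keeps uracil out of DNA, was higher in Sap-1 shRNA cells by 0.54 ± 0.04, adjusted p = 2.3e-06, the helicase subunit gene Mcm3 by 0.35 ± 0.05, adjusted p = 0.00013 and the cyclin E gene Ccne2 by 0.43 ± 0.09, adjusted p = 0.0038. Pcna (-0.15, adjusted p = 0.057) and Mcm2 (-0.01, adjusted p = 0.86) did not pass. Of 64 mitosis genes measured, 20 were higher in Net (31.2%) and 2 in Sap-1 shRNA cells (3.12%), and 42 did not pass, a median of 0.10. The kinetochore genes Nuf2 (0.54) and Cenpa (0.51) and the kinase gene Nek2 (0.53) were higher in Net shRNA cells, and Pbk (0.35) and Racgap1 (0.28) in Sap-1 shRNA cells. With the median of neighbouring genes taken off, the mitosis counts were 13 and 4. Of 26 G1 cyclin, CDK and CDK inhibitor genes measured, 9 were higher in Net (34.6%) and 4 in Sap-1 shRNA cells (15.4%), and 13 did not pass. Without Sap-1 shRNA replicate 1 the count higher in Net shRNA cells was 5. Mycn, a growth regulator gene of the Myc family, had levels of 9.04, 9.09 and 9.04 in the Net shRNA arrays and 7.55, 7.18 and 7.10 in the Sap-1 shRNA arrays, and of 8.52, 8.46 and 8.67 in the control vector arrays, higher in Net shRNA cells by 1.78 ± 0.10, adjusted p = 1.7e-07. The CDK inhibitor gene Cdkn2c was also higher there (0.72), whereas Ccnd1 and Ccnd2 (0.30) were higher in Sap-1 shRNA cells. Of 29 p53 target genes measured, 10 were higher in Net (34.5%) and 11 in Sap-1 shRNA cells (37.9%), and 8 did not pass. Perp, a desmosome and cell death gene, was higher in Net shRNA cells by 2.38 ± 0.13, adjusted p = 1.2e-07, from means of 6.64 in Sap-1 shRNA to 9.02 in Net shRNA arrays, with the control vector at 6.75.

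**Figure D4:**
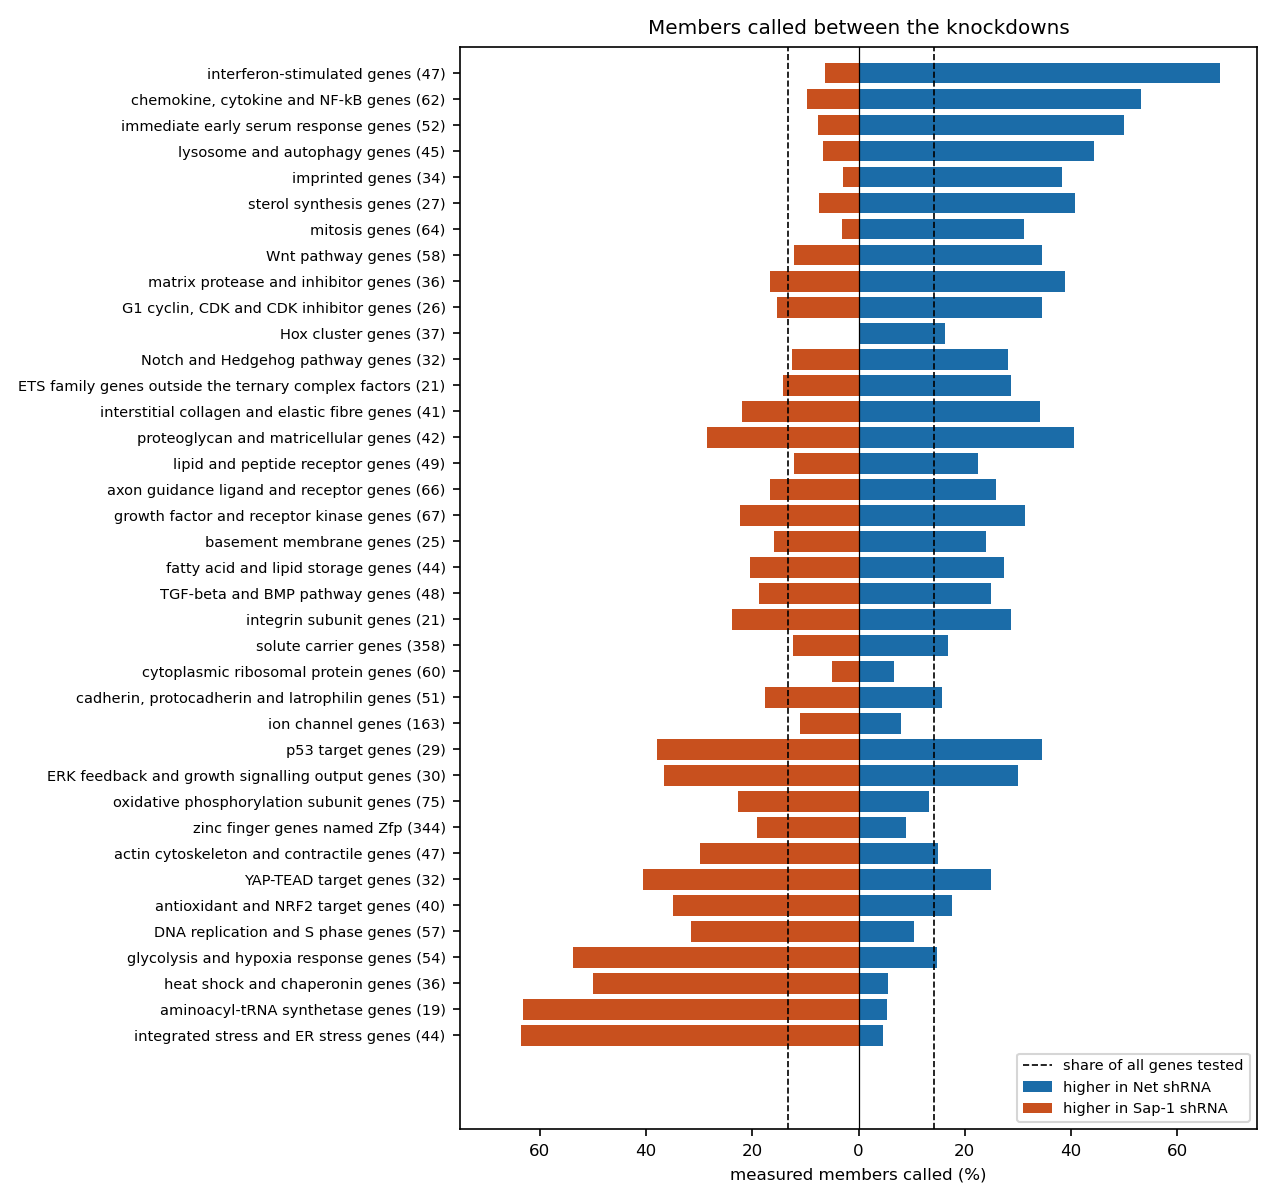
Share (%) of measured members (number in brackets) of 38 gene lists called higher in Net shRNA (right, blue) or Sap-1 shRNA cells (left, orange), with the shares of all genes tested, 14.2% and 13.3%, as dashed lines. Interferon-stimulated genes reach 68.1% on the right and integrated stress genes 63.6% on the left.

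Organelle and metabolic lists were mixed. Of 45 lysosome and autophagy genes measured, 20 were higher in Net shRNA cells, 3 were higher in Sap-1 shRNA cells and 22 did not pass, 44.4% toward Net shRNA. Besides Ctsk, the lysosomal enzyme genes Gla (0.66), Gusb (0.44) and Ctsd (0.42) were higher in Net shRNA cells, and Hexa (0.29) in Sap-1 shRNA cells. The count higher in Sap-1 shRNA cells was 1 without Net shRNA replicate 3 or Sap-1 shRNA replicate 1 or 3. Of 27 sterol synthesis genes measured, 11 were higher in Net (40.7%) and 2 in Sap-1 shRNA cells (7.41%), and 14 did not pass, a median of 0.03. The sterol reductase genes Tm7sf2 (0.65) and Dhcr7 (0.55) were higher in Net shRNA cells, and the earlier enzyme gene Sqle (0.26) in Sap-1 shRNA cells. Of 44 fatty acid and lipid storage genes measured, 12 were higher in Net and 9 in Sap-1 shRNA cells, and 23 did not pass. At 27.3% and 20.5% this list lay near the shares of brighter genes. Agpat2, which builds phosphatidic acid, was higher in Net shRNA cells by 1.65 ± 0.07, adjusted p = 1.1e-08, and the desaturase family gene Fads3 in Sap-1 shRNA cells by 0.63. Of 75 oxidative phosphorylation subunit genes measured, 10 were higher in Net and 17 in Sap-1 shRNA cells, and 48 did not pass. Their shares, 13.3% and 22.7%, lay below and at the 23.2% and 22.9% of brighter genes. With the median of neighbouring genes taken off the counts fell to 2 and 9. Without Sap-1 shRNA replicate 2 the count higher in Sap-1 shRNA cells was 11. Of 60 cytoplasmic ribosomal protein genes measured, 4 were higher in Net shRNA cells, 3 were higher in Sap-1 shRNA cells and 53 did not pass, below the background in both directions, at a median of 0.00. The count higher in Sap-1 shRNA cells was 1 without Net shRNA replicate 1 or 2 or Sap-1 shRNA replicate 2 or 3.

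Of 34 imprinted genes measured, 13 were higher in Net (38.2%) and 1 in Sap-1 shRNA cells (2.94%), and 20 did not pass. All genes gave 14.2% and 13.3%. Imprinted genes are expressed from the copy of 1 parent, and several promote embryonic growth, Igf2 among them. Meg3, a noncoding RNA gene of the Dlk1 region, had levels of 11.68, 11.31 and 11.34 in the Net shRNA arrays and 9.59, 9.59 and 9.25 in the Sap-1 shRNA arrays, and of 11.81, 11.53 and 11.73 in the control vector arrays. Sap-1 shRNA arrays were the low group (1.97 ± 0.12, adjusted p = 3e-07). Rian, a noncoding RNA gene of the same region, was higher in Net shRNA cells by 1.70 and the zinc finger gene Peg3 by 1.81. The growth inhibitor gene Grb10 was higher in Sap-1 shRNA cells by 0.44. Mest, another imprinted gene, did not pass (0.11, adjusted p = 0.69), with both knockdowns, at 6.04 and 5.93, below the control vector at 9.12. Of 37 Hox cluster genes measured, 6 were higher in Net (16.2%) and 0 in Sap-1 shRNA cells (0.0%), and 31 did not pass. The Hox share toward Net shRNA was thus near that of all genes. Hoxb9, a trunk positional gene, had levels of 9.75, 9.71 and 9.67 in the Net shRNA arrays and 7.72, 7.78 and 7.69 in the Sap-1 shRNA arrays, and of 8.35, 8.29 and 8.44 in the control vector arrays, higher in Net shRNA cells by 1.98 ± 0.05, adjusted p = 2.8e-10. Without Net shRNA replicate 1, 1 Hox gene was called in the Sap-1 direction.

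Of 47 actin cytoskeleton and contractile genes measured, 7 were higher in Net and 14 in Sap-1 shRNA cells, and 26 did not pass. The shares were 14.9% and 29.8%, against 23.2% and 22.9% of brighter genes. The smooth muscle actin gene Actg2 was higher in Sap-1 shRNA cells by 1.58 ± 0.07, adjusted p = 4.1e-08 and the focal adhesion gene Tes by 1.41 ± 0.05, adjusted p = 5.7e-09, whereas the LIM protein genes Fhl1 (0.79) and Csrp2 (0.67) were higher in Net shRNA cells. Acta2 (-0.01, adjusted p = 0.88) and Tagln (0.03, adjusted p = 0.79) did not pass. Of 32 YAP-TEAD target genes measured, 8 were higher in Net (25.0%) and 13 in Sap-1 shRNA cells (40.6%), and 11 did not pass. Ccn1 (0.08, adjusted p = 0.16) and Ccn2 (-0.04, adjusted p = 0.47), the best known of them, did not pass, and Asap1 (0.85), Crim1 (0.83) and Wwc1 (0.65) were higher in Sap-1 shRNA cells. Of 358 solute carrier genes measured, 60 were higher in Net shRNA cells, 44 were higher in Sap-1 shRNA cells and 254 did not pass, near the background. The glutamate transporter gene Slc1a3 was higher in Net shRNA cells by 1.55 and the amino acid transporter gene Slc6a15 in Sap-1 shRNA cells by 1.85. Of 163 ion channel genes measured, 13 were higher in Net shRNA cells, 18 were higher in Sap-1 shRNA cells and 132 did not pass. The potassium channel subunit gene Kcnab1 (2.38) and the sodium channel gene Scn7a (2.44) were higher in Net shRNA cells and Kcnab2 (1.23) in Sap-1 shRNA cells. Of 344 zinc finger genes named Zfp measured, 31 were higher in Net shRNA cells, 66 were higher in Sap-1 shRNA cells and 247 did not pass, or 9.01% and 19.2%. The largest of these differences were those of Zfp36l1, also an immediate early gene, higher in Net shRNA cells by 1.13, and Zfp980, higher in Sap-1 shRNA cells by 1.19. Zfp980 was dim, with means of 4.33 in Net and 5.52 in Sap-1 shRNA arrays beside a median of 7.81 over all genes.

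The same 3 control vector arrays place each list on either side. Since both differences share those arrays, they are given side by side only. The interferon list had a median of 0.32 for Net shRNA and -0.13 for Sap-1 shRNA minus control vector. The chemokine list stood at 0.05 and -0.11, and the immediate early list at 0.02 and -0.11. Glycolysis and hypoxia genes stood at 0.09 and 0.28. The stress list stood at 0.00 and 0.20, and the tRNA synthetase list at 0.03 and 0.23. For replication genes both medians lay above 0, at 0.32 and 0.36, as they did for mitosis genes, at 0.26 and 0.18, and for p53 targets, at 0.31 in each.

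**Figure D5:**
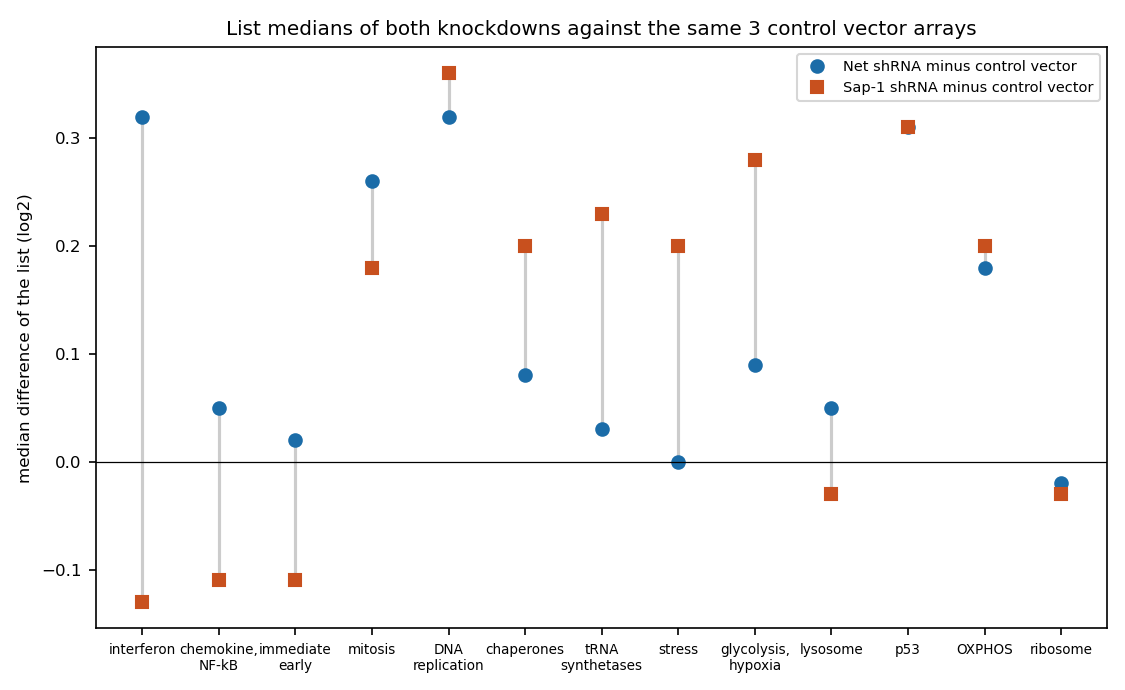
Median difference (log2) from the same 3 control vector arrays for Net shRNA (blue circles) and Sap-1 shRNA cells (orange squares), for 13 gene lists. The markers coincide for p53 targets at 0.31 and lie farthest apart for interferon-stimulated genes.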

How the data were processed

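Messenger RNA of 9 samples was measured on Affymetrix Mouse Gene 1.0 ST arrays from 0.1 ug of total RNA, per the labels' protocols. The authors deposited 1 log2 value per probe set and array, for which the submitters' processing notes name RMA and Affymetrix Expression Console but no versions. RMA brings arrays to a common distribution, so it would remove a shift common to most genes, and small folds of dim genes are compressed. The table holds no detection calls. Values ran from 3.24 to 14.47 and array medians from 7.47 to 7.54. Arrays have no read depth, and their number limits the precision.

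Symbols came from the platform annotation, updated through Entrez IDs in a RefSeq table (GRCm38.p6) that held those of 21689 probe sets. Of the probe sets, 21780 carried 1 symbol, 1605 carried several and 5430 carried none. Where several probe sets shared a symbol (998 genes), the brightest on average stood for the gene. Genes not on such probe sets were not analysed here. Called probe sets opposed each other for no gene named in the report. Upstream windows came from RefSeq.

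The test was limma's (version 3.58.1, R 4.3.3, lmFit and eBayes) in 1 fit over all 9 arrays, with 6 residual and 4.7 prior degrees of freedom and Benjamini-Hochberg adjustment over 19935 genes. The script was tested on simulated data. Gene lists are described by counts and medians and were not tested as sets. Genes were named as the 12 largest differences per direction that did not overlap, passing over predicted, small RNA and chemosensory receptor genes, and up to 4 or 6 called members per list and direction with the largest differences, plus members with a defining role. Of the 12 toward Sap-1 shRNA, 1 is not reported here. The members and the 48 lists were chosen with earlier results of these data known.

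Alternatives were a block for the replicate number, robust variances with an intensity trend, a fit of the 6 compared arrays alone, 3 other normalizations, the dimmer genes left out, averaged probe sets per gene, array weights, neighbouring genes' median taken off, each array left out, at least 1.5-fold, and an adjusted p under 0.01.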

Additional observations from a re-analysis of the deposited data

How the results depend on the processing

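The counts of genes higher in Net and in Sap-1 shRNA cells stayed within 1.5 times the reported values under all settings but a fold threshold. With each array left out in turn they ran from 2475 to 2840 and from 2279 to 2641, and median centring of the arrays gave 2352 and 2819. Deviations of same-numbered Net and Sap-1 shRNA arrays correlated at 0.36, -0.09 and 0.26, and those of differently numbered arrays at -0.43 to 0.30. With so few arrays, whether the replicate numbers pair the samples is not settled, and the main fit took them as unpaired. With the replicate number as a block 2986 genes were higher in Net and 2766 in Sap-1 shRNA cells. At a threshold of at least 1.5-fold 493 and 431 genes remained called, and Elk3 (-0.30) fell below it. Members higher in Net shRNA cells were then 19 for interferon, 19 for chemokine, 7 for immediate early, 11 for proteoglycan, 12 for growth factor, 9 for Wnt, 2 for lysosome and 0 for mitosis genes. Members higher in Sap-1 shRNA cells were then 11 for glycolysis and hypoxia, 7 for stress, 3 for chaperone, 1 for tRNA synthetase and 0 for replication genes. Of all genes, 2.47% and 2.16% were called at that threshold. Most members called toward Net shRNA in the interferon, chemokine, proteoglycan and growth factor lists thus differed by at least 1.5-fold. In the other lists given here most members called in the direction given differed by less. With genes below the median level left out, 18 interferon genes were higher in Net shRNA cells out of fewer tested. With neighbours' median taken off, 13 mitosis genes were, Hes1 lay at 0.00 and Plod1 at 0.07, and the cause was not tested. At an adjusted p under 0.01, 12 lysosome genes were higher in Net shRNA cells. Among the named genes no other direction reversed.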
